A study of Mus musculus with 10 samples.

Results

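Receptors for peptide hormones and neuropeptides were examined in single leptin receptor reporter neurons of the mouse nucleus of the solitary tract (NTS). The set was a list of 42 genes given by name, of 25006 genes listed. It holds 39 G protein-coupled receptors and the 3 receptor activity-modifying proteins (RAMPs), single-pass membrane partners that set the ligand and the trafficking of receptors such as Calcr and Calcrl. Every member was matched to 1 Ensembl identifier in the count files. The neurons were drawn into a glass pipette, cytoplasm and nucleus together, from acute brainstem slices of 3-month-old C57BL/6 mice. All carried LepRb-Cre; Halo-eYFP, in which Cre driven by the leptin receptor gene turns on the fluorescent reporter, and no treatment is named. By firing property the labels put 5 neurons in type 1 (1-1, 1-2, 4-3, 8-2 and 9-1) and 5 in type 2 (6-2, 10-1, 10-3, 9-2 and 9-4). They do not say what the firing properties are, how many mice were used or what the neuron numbers stand for. A firing type was therefore treated as a single sample. Each neuron has its own value, a mean ± SD is the spread between cells (n = 5 neurons a type), and no test between types was made.

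The nucleus of the solitary tract is the first brain relay of vagal sensory input from the gut and other viscera, and many of the peptides that control meal size act there. Peptide receptors pass their signal to G proteins: melanocortin, glucagon-family and PACAP receptors mainly raise cAMP, neuropeptide Y and somatostatin receptors mainly lower it, and vasopressin, TRH and bombesin-type receptors mainly act through phospholipase C and calcium. Messenger RNAs of such receptors are usually present in few copies per cell.

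Levels are CPM (a gene's counts scaled to the library's summed gene counts), and a gene was called detected in a neuron where it reached 10 CPM from no fewer than 3 counts. Library totals ranged from 9796799 counts in 4-3 to 41844825 in 8-2, where 0 counts allow at most 0.306 and 0.0717 CPM (3 counts of the total). That limit and the Poisson intervals given for summed levels describe counting error alone: RNA lost before sequencing is outside them, and reads amplified from 1 cell are not independent molecules. Of 10 neuronal genes, 8 to 10 were detected in each neuron, and Lepr, one of them, was detected in 6 neurons. Of 14 microglial marker genes, 12 were detected in 6-2, 12 in 9-4, 7 in 9-2 and 6 in 1-2, against 0 to 2 in the other 6 neurons. Astrocyte markers reached 6 of 14 in 6-2 and 0 to 3 in the other neurons, and 7 of the 14 were detected in some neuron, Ttyh1 in 6 neurons and S100b in 4, while Aqp4, Slc1a3 and Gja1 were among the 7 detected in none. Of 14 oligodendrocyte markers 0 to 3 were detected a neuron, Mbp in 8 neurons, with the highest sum, 1047 CPM, in 9-1.

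Of the 42 members, 14 were detected in at least 1 of the 10 neurons, which is 33.3% against 47.1% of all listed genes. A further 11 had counts without reaching the detection level, and 17 had 0 counts in every neuron. The 14 were the melanocortin receptors Mc3r and Mc4r, the RAMPs Ramp1, Ramp2 and Ramp3, the neuropeptide Y receptors Npy1r and Npy2r, the somatostatin receptors Sstr2, Sstr3 and Sstr4, the vasopressin receptor Avpr1a, the PACAP receptor Adcyap1r1, the TRH receptor Trhr and the neuromedin B receptor Nmbr. In type 1, 5 members (11.9%) were detected in at least 1 neuron, against 41.0% of all genes, and without 8-2 the number was 3. In type 2 the number was 13 (31.0%), against 41.7% of all genes.

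**Figure D1:**
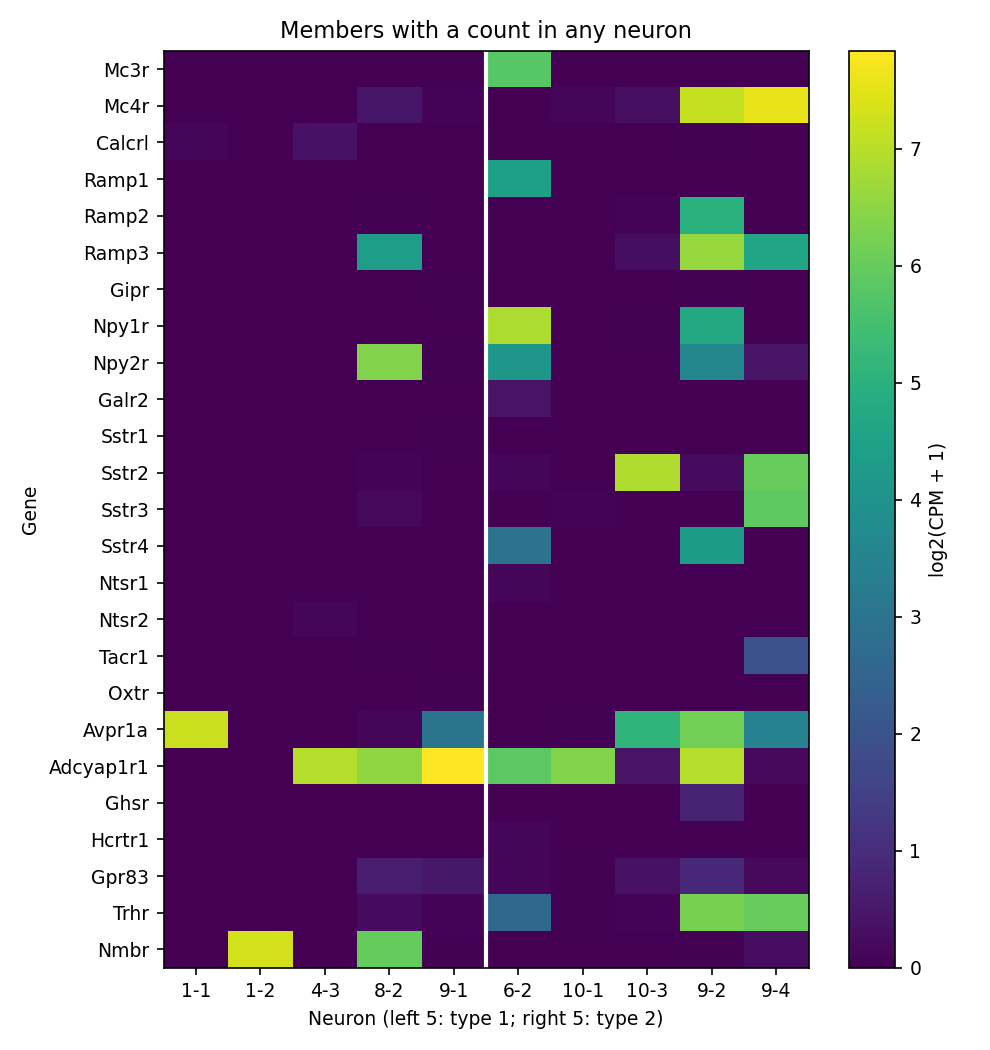
Level of each of the 25 members with a count in any neuron (rows) in each neuron (columns), as log2(CPM + 1), with the types divided by a white line. Members at 10 CPM or more stand in 1 to 6 neurons each, and 9-2 has the most of them, 9.

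The set of detected receptors varied among cells of the same firing type. Neurons 1-1, 1-2, 4-3, 9-1 and 10-1 each had 1 detected member: Avpr1a in 1-1, Nmbr in 1-2 and Adcyap1r1 in the other 3. Neuron 10-3 had 2 (Sstr2 and Avpr1a) and 8-2 had 4 (Ramp3, Npy2r, Adcyap1r1 and Nmbr). Neuron 6-2 had 5 (Mc3r, Ramp1, Npy1r, Npy2r and Adcyap1r1) and 9-4 had 6 (Mc4r, Ramp3, Sstr2, Sstr3, Avpr1a and Trhr). Neuron 9-2 combined 9: Mc4r, Ramp2, Ramp3, Npy1r, Npy2r, Sstr4, Avpr1a, Adcyap1r1 and Trhr. The summed level of the 42 members ran from 80.6 CPM in 10-1 to 596 CPM in 9-2.

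Counted over neurons, members were detected 23 times in type 2, which is 11.0% of 210 values, and 8 times in type 1, which is 3.81%. For all genes the corresponding shares were 26.2% and 24.0%. Of the 23 type 2 detections, 20 lay in 6-2, 9-2 and 9-4, the 3 type 2 neurons with 7 to 12 microglial markers detected (524 to 1809 CPM summed over the 14). The other type 2 neurons, 10-1 and 10-3, held 3, or 1.50 per neuron, against 1.60 per neuron in type 1. Without 6-2, 9-2 and 9-4, 3 members were detected in type 2 in place of 13. These are the type 2 neurons with most detected members, so a fall follows from leaving them out. The share over all genes was not computed for this setting. The part of microglial RNA in these counts was not tested. In type 1, 1-2 had 6 microglial markers, at 896 CPM summed against 524 CPM in 9-2, and 1 detected member. Neuron 8-2 had 1 microglial marker and 4 members. With every library thinned to the smallest total, 5 and 13 members were again detected in type 1 and type 2. Among neurons whose first number is 9, found in both types, 9-1 (type 1) had 1 detected member and 9-2 and 9-4 (type 2) had 9 and 6.

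**Figure D2:**
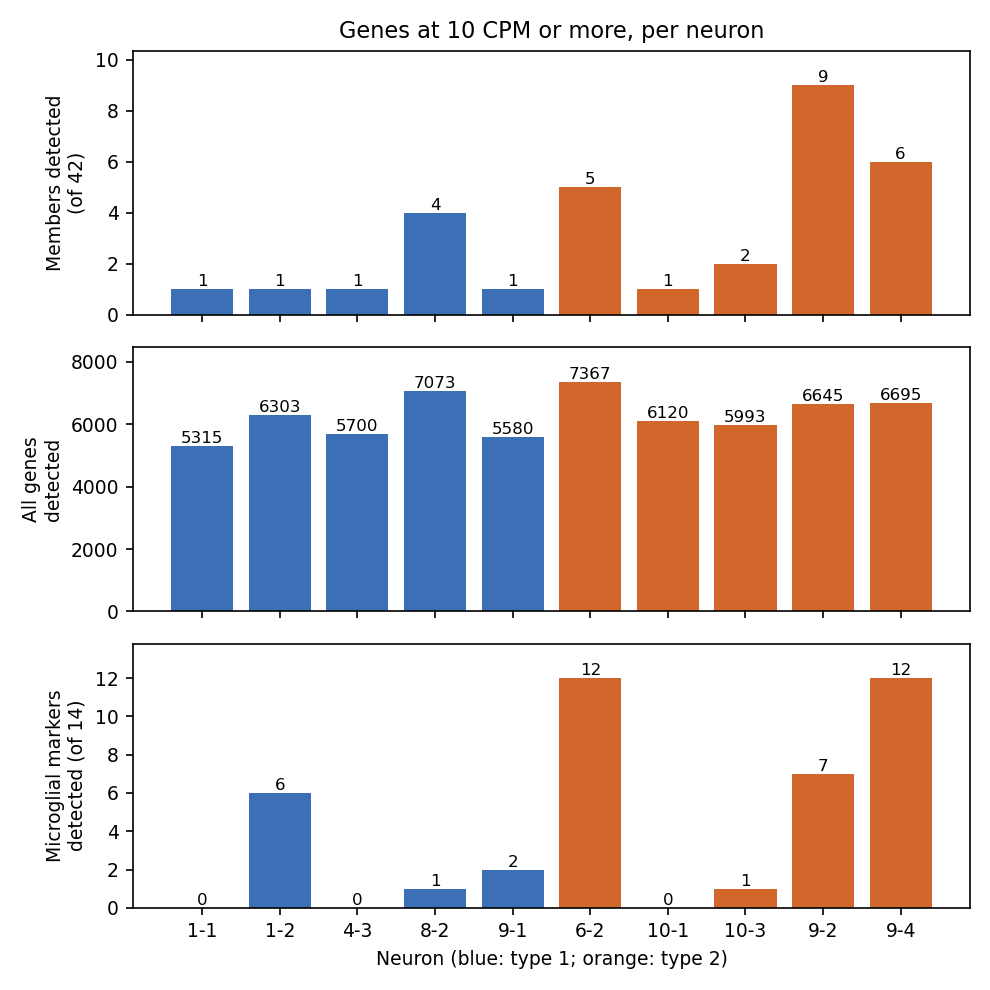
Number of members (top), of all listed genes (middle) and of microglial marker genes (bottom) at 10 CPM or more in each neuron, type 1 in blue and type 2 in orange. Members range from 1 to 9 a neuron and all genes from 5315 to 7367, and the 3 type 2 neurons with most members also have 7 to 12 microglial markers.

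Levels were mostly either high or close to 0. Of the 420 values of members, 339 (80.7%) were 0 counts, against 61.8% for all listed genes. Of the 81 values above 0, 46 (56.8%) lay under 1 CPM, 4 (4.94%) from 1 to under 10 CPM and 31 (38.3%) at 10 CPM or more. For all genes the shares were 24.1%, 10.2% and 65.7%. Few values thus lay near the detection level. The nearest below it were 5.08 CPM for Trhr and 6.97 CPM for Sstr4 in 6-2 and 7.07 CPM for Avpr1a in 9-1. The nearest above it were 10.2 CPM for Avpr1a in 9-4, 11.1 CPM for Npy2r in 9-2 and 16.7 CPM for Npy2r in 6-2. Of the 14 detected members, 5 were detected in 1 neuron, 5 in 2, 2 in 3, Avpr1a in 4 and Adcyap1r1 in 6, a median of 2 neurons against 5 for all genes detected in any.

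**Figure D3:**
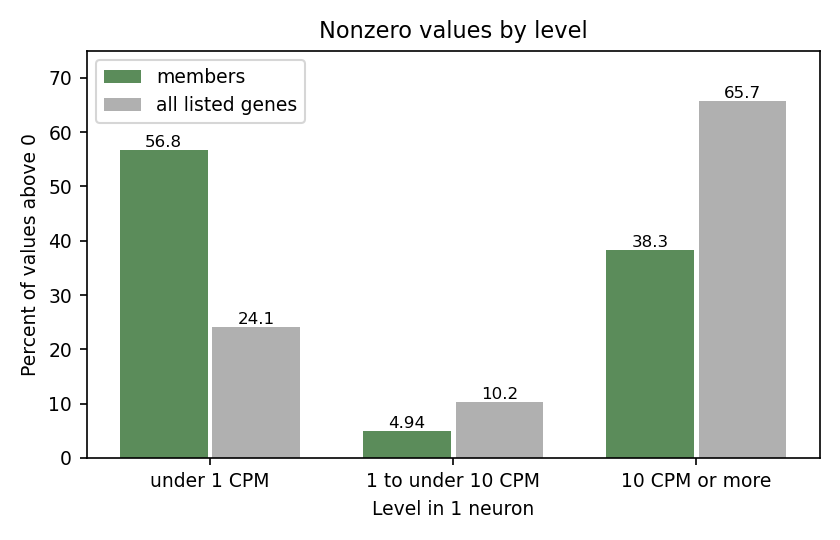
Share of the values above 0 that lie under 1 CPM, from 1 to under 10 CPM, and at 10 CPM or more, for the 42 members (81 values) and for all listed genes (95604 values). Members have 56.8% of such values under 1 CPM, against 24.1% for all genes.

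Adcyap1r1, the receptor selective for the neuropeptide PACAP (ENSMUSG00000029778, GRCm38 chromosome 6, 55451978 to 55501451, plus strand), was detected in 3 neurons of each type, more than any other member. In type 1 it was at 0 counts in 1-1 and 1-2 and at 125 CPM in 4-3, 92.5 CPM in 8-2 and 228 CPM in 9-1. In type 2 it was at 57.3 CPM in 6-2, 80.4 CPM in 10-1, 0.331 CPM in 10-3, 124 CPM in 9-2 and 0.159 CPM in 9-4. Both types therefore spanned the range from near 0 to over 100 CPM and overlapped. The means were 89.0 ± 95.3 CPM (type 1) and 52.5 ± 53.5 CPM (type 2). The difference between types, here always the mean of log2(CPM + 1) in type 2 less that in type 1, was -0.31. That difference turned positive without 4-3 (0.37), 8-2 (0.26), 9-1 (0.58), 10-3 (0.58) or 9-4 (0.63). Vipr1 and Vipr2, which bind PACAP and vasoactive intestinal peptide alike, had 0 counts in all neurons. The PACAP gene Adcyap1 was itself detected in every neuron, from 146 CPM in 4-3 to 1015 CPM in 9-2.

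Avpr1a, a vasopressin receptor that acts through phospholipase C (ENSMUSG00000020123, chromosome 10, 122448499 to 122453452, plus strand), was detected in 4 neurons. Its type 1 levels were 146 CPM in 1-1, 7.07 CPM in 9-1, 0.0717 CPM in 8-2 and 0 in 1-2 and 4-3. Its type 2 levels were 34.2 CPM in 10-3, 70.5 CPM in 9-2, 10.2 CPM in 9-4, 0.0240 CPM in 10-1 and 0 in 6-2. The highest value was in type 1 while 3 of the 4 detections were in type 2, and the types overlapped. Avpr1a averaged 30.7 ± 64.7 CPM (type 1) and 23.0 ± 30 CPM (type 2), whereas the difference of mean log2(CPM + 1) was 0.90, so the sign depends on which scale is averaged. That difference was 0.10 without 9-2 and 2.19 without 1-1. Oxtr, the related oxytocin receptor, had 0.0319 CPM in 9-1 and 0 counts elsewhere, and the vasopressin gene Avp was detected in none.

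The sequence upstream of these receptors, the most widely detected, is set beside that of Glp1r, the receptor of the gut peptide GLP-1, which had 0 counts. It comes from the RefSeq promoter table on GRCm38.p6, from which 34 of the 42 members were used. Mc4r and Galr1 were left out beforehand. The bases from 250 to 51 before the annotated start are printed 5′ to 3′ on the plus strand, with each CG dinucleotide, the usual site of DNA methylation, in capitals. They lie at chr6:55451728-55451927 for Adcyap1r1, chr10:122448249-122448448 for Avpr1a and chr17:30901617-30901816 for Glp1r.
Adcyap1r1: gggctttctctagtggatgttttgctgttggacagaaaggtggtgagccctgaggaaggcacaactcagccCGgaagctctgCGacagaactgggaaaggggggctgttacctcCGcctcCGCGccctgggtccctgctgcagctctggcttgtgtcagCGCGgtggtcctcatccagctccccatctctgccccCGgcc
Avpr1a: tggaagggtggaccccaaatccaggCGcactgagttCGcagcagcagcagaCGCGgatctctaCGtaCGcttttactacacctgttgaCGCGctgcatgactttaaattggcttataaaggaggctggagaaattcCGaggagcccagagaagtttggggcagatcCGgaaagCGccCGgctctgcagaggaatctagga
Glp1r: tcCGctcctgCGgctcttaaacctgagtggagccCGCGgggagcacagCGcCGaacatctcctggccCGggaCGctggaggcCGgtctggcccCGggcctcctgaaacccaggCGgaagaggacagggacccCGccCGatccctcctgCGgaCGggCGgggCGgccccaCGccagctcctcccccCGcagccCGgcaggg
The Glp1r stretch holds 20 CG dinucleotides in 200 bases, Avpr1a 12 and Adcyap1r1 8, so the receptor with 0 counts has the most of these 3.

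The whole window ran from 250 bases before to 50 after the start. In it the 11 detected members used, without Mc4r, Trhr and Ramp2, had a median of 14 CG dinucleotides and 57.7% GC. The 23 undetected members used had 15 and 58.0%, and all 27025 promoters had 7.0 and 52.7%. The GC box, GGGCGG on either strand, was in 5 of the 11 (45.5%), in 8 of the 23 (34.8%) and in 35.9% of all promoters. CCAAT on either strand was in 5 of the 11 (45.5%), 6 of the 23 (26.1%) and 37.9% of all. The medians of CG dinucleotides for both kinds of member were thus above that of all promoters. Some members lay below it, such as Ramp1 with 6 (detected) and Brs3 with 3 (undetected). A match of letters is not a binding site.

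The melanocortin receptors bind peptides cut from the Pomc product, and Mc4r is known for lowering food intake when activated. Mc4r (ENSMUSG00000047259) was at 142 CPM in 9-2, 191 CPM in 9-4, 0.0961 CPM in 10-1, 0.249 CPM in 10-3 and 0 in 6-2. In type 1 it was at 0.358 CPM in 8-2, 0.0637 CPM in 9-1 and 0 in 1-1, 1-2 and 4-3. Type 2 neurons 9-2 and 9-4 stood far above the other 8, among which the types overlapped. Mc4r averaged 66.7 ± 92.8 CPM (type 2) and 0.0844 ± 0.156 CPM (type 1), and summed over neurons the level was 67.2 CPM (exact Poisson 95% interval 65.8 to 68.5) against 0.152 CPM (0.0885 to 0.243). Mc3r was at 54.4 CPM in 6-2 and at 0 counts in the other 9, so the melanocortin receptors were detected in different cells.

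Mrap2 encodes an accessory protein of Mc4r. It was at 99.1 CPM in 9-4 but 0.105 CPM in 9-2, and at 25.5 CPM in 6-2, the neuron with Mc3r. It was also at 78.5 CPM in 1-2, 99.8 CPM in 8-2 and 204 CPM in 9-1, all type 1 neurons without detected Mc4r. Pomc was detected in all 5 type 2 neurons at 11.1 to 31.5 CPM, and in 1-1 at 32.0 CPM.

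Trhr, the receptor of thyrotropin-releasing hormone (ENSMUSG00000038760, chromosome 15, 44196135 to 44235912, plus strand), was detected in the same neurons as Mc4r. It was at 74.2 CPM in 9-2, 64.0 CPM in 9-4, 5.08 CPM in 6-2, 0.0552 CPM in 10-3 and 0.0240 CPM in 10-1. In type 1 it was at 0.167 CPM in 8-2, 0.0637 CPM in 9-1 and 0 in 1-1, 1-2 and 4-3. Neurons 9-2, 9-4 and 6-2 were the highest of the 10, and the types overlapped among the rest. Of the 1235 genes detected in exactly 2 neurons, 37 (3.00%) had this pair. Trhr averaged 28.7 ± 37.1 CPM (type 2) and 0.0462 ± 0.0731 CPM (type 1), and its ligand gene Trh was detected in none.

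Npy1r and Npy2r, which bind neuropeptide Y and peptide YY, were detected in 3 neurons between them. Npy1r (ENSMUSG00000036437, chromosome 8, 66697192 to 66706792, plus strand) had 0 counts throughout type 1, and 117 CPM in 6-2, 25.7 CPM in 9-2, 0.0276 CPM in 10-3 and 0 in 10-1 and 9-4. Npy2r, often a presynaptic receptor (ENSMUSG00000028004, chromosome 3, 82538383 to 82548084, minus strand), was at 81.4 CPM in 8-2, 0.0319 CPM in 9-1 and 0 in 1-1, 1-2 and 4-3. In type 2, Npy2r was at 16.7 CPM in 6-2, 11.1 CPM in 9-2, 0.318 CPM in 9-4 and 0 in 10-1 and 10-3. Both Npy1r neurons thus also had Npy2r, and 8-2 had Npy2r alone. Mean Npy1r was 28.6 ± 50.8 CPM in type 2, with a summed type 1 level limited by depth to 0.0330 CPM (upper exact Poisson bound). Npy2r averaged 16.3 ± 36.4 CPM (type 1) and 5.63 ± 7.82 CPM (type 2), the type 1 value resting on 8-2, while the difference of mean log2(CPM + 1) was 0.35 in the other direction and was -0.28 without 6-2 and -0.145 without 9-2. Npy5r and the ligand genes Npy and Pyy were not detected.

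Of the somatostatin receptors, which lower cAMP and open potassium channels, Sstr2 (ENSMUSG00000047904, chromosome 11, 113619342 to 113626028, plus strand) reached 118 CPM in 10-3, 64.1 CPM in 9-4, 0.175 CPM in 9-2, 0.0820 CPM in 6-2 and 0 in 10-1. In type 1 it was at 0.0478 CPM in 8-2 and 0 in the other 4. Neurons 10-3 and 9-4, both type 2, held nearly all of its counts, and 10-3 is a type 2 neuron with 1 microglial marker detected. Sstr2 averaged 36.4 ± 53.3 CPM (type 2) and 0.00956 ± 0.0214 CPM (type 1). Sstr3 was detected in 9-4 at 59.0 CPM and Sstr4 in 9-2 at 18.5 CPM, so 9-4 had a pair of somatostatin receptors. Sstr1 had 0.0319 CPM in 9-1 and 0 counts elsewhere. The somatostatin gene Sst was detected in none.

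Nmbr, the receptor of neuromedin B (ENSMUSG00000019865, chromosome 10, 14705591 to 14770850, plus strand), was the single member detected in type 1 and in no type 2 neuron. It was at 156 CPM in 1-2, 62.3 CPM in 8-2, 0.0319 CPM in 9-1 and 0 in 1-1 and 4-3. In type 2 it was at 0.191 CPM in 9-4, 0.0351 CPM in 9-2 and 0 in 6-2, 10-1 and 10-3. Type 1 neurons 1-2 and 8-2 stood above all others and the rest overlapped. Nmbr averaged 43.6 ± 68.2 CPM (type 1) and 0.0452 ± 0.0828 CPM (type 2). It shares 504 exon bases with B230364G03Rik on the opposite strand, and the strand option of the counting is not given in the sources used here, so its reads may be counted from either. Its relatives Grpr and Brs3 had 0 counts. The neuromedin B gene Nmb was detected in 10-1 at 12.7 CPM and in 9-2 at 16.9 CPM, neither of which had Nmbr.

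The RAMPs were detected without the receptors they are best known to modify. Ramp3 (ENSMUSG00000041046, chromosome 11, 6658521 to 6677475, plus strand) reached 19.8 CPM in 8-2 and 0 in the other type 1 neurons. In type 2 it was at 97.1 CPM in 9-2, 23.2 CPM in 9-4, 0.221 CPM in 10-3 and 0 in 6-2 and 10-1. The types overlapped, with means of 3.96 ± 8.85 CPM (type 1) and 24.1 ± 42 CPM (type 2). Ramp1 was detected in 6-2 at 21 CPM and Ramp2 in 9-2 at 31.4 CPM. Calcr had 0 counts, and Calcrl, which forms the CGRP and adrenomedullin receptors with RAMPs, had at most 0.306 CPM, in 4-3. Ramp2 shares 1103 exon bases with Vps25 on the same strand, so its value is uncertain. Ramp3 shares 101 of 1380 with Gm11978 on the opposite one, which had 1 count in all neurons together. The CGRP gene Calca was detected in 1-1 (1148 CPM), 1-2, 6-2 and 9-2. All 4 neurons with a detected RAMP also had a detected member of another family.

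The glucagon, cholecystokinin, galanin, neurotensin, tachykinin, ghrelin, orexin and bradykinin receptor families had no detected member. Glp1r, Glp2r and Gcgr, the receptors of the Gcg peptides, had 0 counts in all neurons, and Gipr at most 0.0351 CPM. Gcg itself was detected in all 5 type 2 neurons, from 3556 CPM in 6-2 to 17679.8 CPM in 9-2, so these cells held the peptide gene without reads of its receptors. The galanin receptors Galr1 and Galr3 had 0 counts and Galr2 0.328 CPM in 6-2, while Gal was at 1859 to 5124 CPM in type 1. The cholecystokinin receptors Cckar and Cckbr had 0 counts, with Cck detected in 10-3, 9-2 and 9-4.

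The remaining members with 0 counts were Tacr3, Prlhr, Hcrtr2 and Bdkrb2. Those with counts under the detection level were Ntsr1, Ntsr2, Tacr1, Ghsr, Hcrtr1 and Gpr83. The highest of these values was 2.86 CPM, for the substance P receptor Tacr1 in 9-4, and the ghrelin receptor Ghsr reached 0.736 CPM in 9-2. Gpr83 had counts in 7 neurons, more than most detected members, yet its highest level was 0.842 CPM in 9-2. In 3 of the 4 smaller libraries (1-1, 1-2 and 4-3), 1 to 3 members had any count, against 6 to 15 in the other 7 neurons, so counts below the detection level depend on the library.

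Levels were also taken per kilobase of merged exon sequence, which accounts for exon length only if reads cover it evenly. In the neurons where a member was detected, the median was highest for Mc4r, at 59.4 CPM per kilobase (50.6 to 68.3 in 2 neurons). Sstr2 followed at 42.4 (29.9 to 55.0 in 2 neurons) and Nmbr at 33.8 (19.3 to 48.2 in 2 neurons). Adcyap1r1 had 16.4 (8.68 to 34.5 in 6 neurons) and Avpr1a 19.6 (3.82 to 54.8 in 4 neurons). Ramp3 had the highest single value, 70.4, with a median of 16.8 (14.3 to 70.4 in 3 neurons). These ranges overlap except between Mc4r and Adcyap1r1 or Nmbr, so most of the order is within the spread over neurons.

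Compared between the types, 9 of the 14 detected members (64.3%) were detected in type 2 and in no type 1 neuron, against 12.9% of all genes detected in any neuron: Mc3r, Mc4r, Ramp1, Ramp2, Npy1r, Sstr2, Sstr3, Sstr4 and Trhr. The reverse held for 1 (7.14%), Nmbr, against 11.5% of all genes. Each of these 10 members was detected in 1 or 2 neurons, so a call rests on few cells. A gene detected in 1 neuron falls in a single type by definition. Detected members had a median of 2 neurons, against 5 for all genes detected in any, and the shares were not matched for this. Of the 25 members with any count, 4 (16.0%) were at least 4-fold higher in type 2, which here means a difference of mean log2(CPM + 1) of 2 or more, against 11.0% of all genes with a count. They were Mc4r (2.93), Trhr (2.93), Sstr2 (2.64) and Npy1r (2.33), and the number was 2 without 9-2 or without 9-4. Trhr stayed at 2.12 or more whichever neuron was left out. The Mc4r difference was 1.90 without 9-2 and 1.80 without 9-4, that of Sstr2 1.58 without 10-3 and 1.80 without 9-4, and that of Npy1r 1.19 without 6-2 and 1.73 without 9-2. Nmbr (-2.60) was the 1 member (4.00%) at least 4-fold higher in type 1, against 6.35% of all genes, and without 1-2 or without 8-2 the number was 0.

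No member separated the types. Every type 2 neuron was above every type 1 neuron for 0 of the 25, against 1.18% of all genes, and the reverse held for 0, against 0.479%. The median difference over the 25 was 0.35, with 19 higher in type 2 and 6 in type 1, against 0.05 over all 14607 genes with a count (8043 higher in type 2 and 6564 in type 1). Taken as log2 ratios of summed CPM, with a type at 3 counts or fewer set to that floor, the median over 19 members was 4.48, 13 being higher in type 2, while that over 13521 genes was -0.05. Of the 19, 9 had a type 1 level at the floor and 1 a type 2 level. Those 9 entered through type 2 alone, which fixes their direction and raises the median by construction. Without 6-2, 9-2 and 9-4, the type 2 neurons with most detected members, the 4 members at least 4-fold higher in type 2 became 1. The median of mean log2 differences became -0.01, against -0.02 over all genes.

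**Figure D4:**
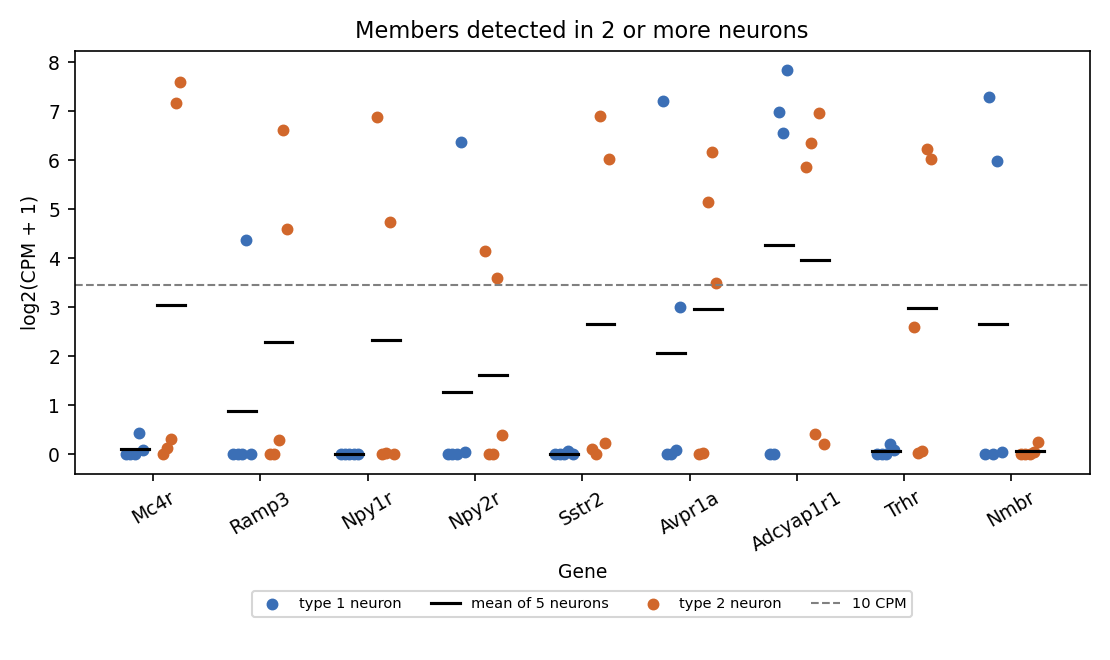
Level of the 9 members detected in 2 or more neurons as log2(CPM + 1), with 1 point per neuron, type 1 in blue and type 2 in orange, short black lines at the mean of 5 neurons and a dashed line at 10 CPM. For each of the 9, both types have neurons near 0, so none separates the types.

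Ligand and receptor RNA were set side by side for 24 pairs, chosen after the values were known. The ligand gene was detected in some neuron for 17 pairs and the receptor for 11, and both in the same neuron for 3. These were Pomc with Mc3r in 6-2, Pomc with Mc4r in 9-2 and 9-4, and Adcyap1 with Adcyap1r1 in 4-3, 8-2, 9-1, 6-2, 10-1 and 9-2. Adcyap1 was detected in all 10 neurons and Pomc in all 5 type 2 neurons. These pairs therefore followed wherever the receptor was detected. For the receptors of neuropeptide Y, somatostatin, vasopressin and TRH the receptor was detected and the paired ligand gene was not, and for glucagon, galanin and cholecystokinin the ligand was detected and the receptors were not.

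**Figure D5:**
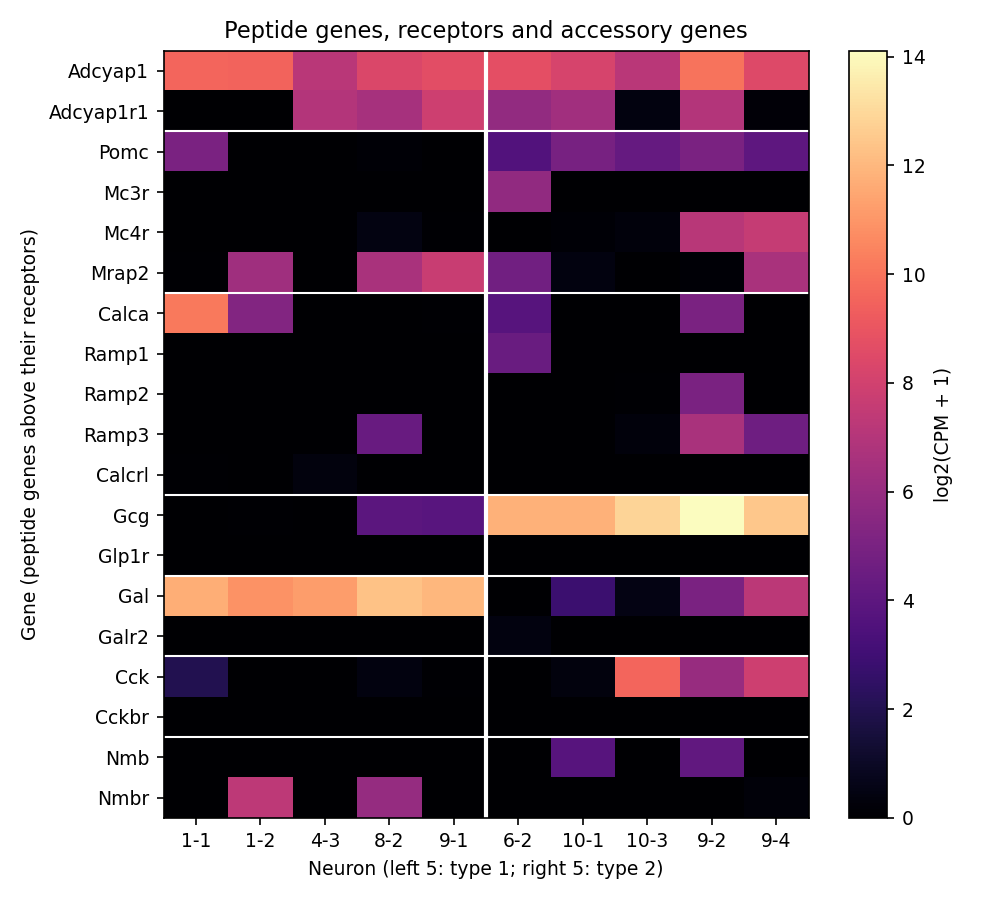
Level of peptide genes and of their receptors and accessory genes in each neuron as log2(CPM + 1), with the types divided by a line. Gcg is at 3556 CPM or more in every type 2 neuron and Gal at 1859 CPM or more in every type 1 neuron. Their receptors are at or near 0. Adcyap1 is detected in every neuron and Adcyap1r1 in 6 of them.

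Among 42 other peptide receptors, 13 were detected in any neuron, 8 in type 1 and 6 in type 2. The shares over all listed genes were 47.1%, 41.0% and 41.7%. Counted over neurons this comparison list was detected 9 times in type 1 and 11 times in type 2. Of its 19 genes with a count, 2 were at least 4-fold higher in type 2 and 1 at least 4-fold higher in type 1. Over all genes with a count the shares were 11.0% and 6.35%. The median difference of the list was -0.08. The list held a receptor with a more even type 2 pattern than any member: Agtr1a, the angiotensin II receptor, was at 58.4 CPM in 10-1, 91.7 CPM in 10-3, 62.7 CPM in 9-2, 66.3 CPM in 9-4 and 8.53 CPM in 6-2. In type 1, Agtr1a was at most 7.21 CPM (1-1), so the types did not overlap for it. Qrfpr, the receptor of the RFamide peptide QRFP, was at 147 CPM in 10-1, 265 CPM in 10-3 and 92.4 CPM in 9-4, and under 1 CPM in the other 7.

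Genes that serve many receptors were examined as well. Of 8 receptor kinases, arrestins and Mrap2, 6 were detected in type 1 and 7 in type 2, and 0 differed 4-fold either way. Grk2, a kinase that desensitises many receptors, averaged 56.1 ± 9.09 CPM over type 1 neurons and 61.6 ± 29.5 CPM over type 2 neurons. Of the other kinases, Grk6 averaged 191 ± 117 CPM over type 1 neurons and 57.4 ± 33.5 CPM over type 2 neurons. Of 13 G protein alpha subunits, 10 were detected in type 1 and 11 in type 2, and 2 were at least 4-fold higher in type 2, Gnai3 (3.21) and Gna12 (2.19, detected in 9-2 and 9-4). Over all listed genes, 41.0% were detected in type 1 and 41.7% in type 2. Of all genes with a count, 11.0% were at least 4-fold higher in type 2. Gnas, the subunit that raises cAMP, averaged 3247 ± 197 CPM over type 1 neurons and 6138 ± 1942 CPM over type 2 neurons. Gnai3, a subunit that lowers it, was detected in 1 type 1 neuron and 4 type 2 neurons, with means of 27.4 ± 60.9 and 58.0 ± 51.3 CPM. Going the other way were Gna11 (-1.44), Gnaz (-1.03) and Gnai1 (-0.91). Gnaz averaged 273 ± 137 CPM over type 1 neurons and 143 ± 112 CPM over type 2 neurons, and Gnai1 250.4 ± 116 and 149 ± 101 CPM. The median difference over the 12 alpha subunits with a count was 0.11.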

How the data were processed

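RNA of 10 single neurons was measured, with 1 library each. The deposited values are whole-number gene counts without normalization or molecular identifiers. Per the submitters' processing notes, cutadapt 1.13, STAR, HTSeq 0.6.1p1 and DESeq2 were used with mm10. The annotation release, strand option and amplification steps, if any, are not stated.

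CPM was computed from the deposited counts and each library's summed gene counts. Detection required 10 CPM and 3 counts, and differences used log2(CPM + 1). Members were matched by Ensembl identifier, and positions and exon overlaps came from GENCODE on GRCm38. Values in every neuron are given for members detected in 2 or more neurons, and other members are named with their highest value or as undetected. Members and lists were chosen with earlier results of these data known. Neurons are cells and no animal is named, so no model was fitted. No library was a copy of another by its counts. Python 3.11.15 and pandas 2.3.3 were used, with edgeR 4.0.16 for TMM factors in an alternative. Only the difference between types was tested on simulated data, for the more highly expressed genes, and the detection calls were not.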

Additional observations from a re-analysis of the deposited data

Results flagged for a closer look

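In 7 of 20 groups of 5 neurons examined, 1 neuron stood apart from the other 4 by a gap over 0.71 of the range. Normally distributed values pass that limit in about 1 in 20 groups. Most member values here were 0, so that rate need not apply, and 7 of 20 was not compared with chance. Neuron 6-2 stood apart among type 2 neurons for Mc3r (54.4 CPM) and Ramp1 (21 CPM). Neuron 9-2 did so for Ramp2 (31.4 CPM) and 9-4 for Sstr3 (59.0 CPM). Among type 1 neurons, 8-2 stood apart for Npy2r (81.4 CPM), for Ramp3 (19.8 CPM) and for its number of detected members, 4 against 1 in each of the others. A gene detected in 1 neuron and at or near 0 in the others of its type meets this rule by construction.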

How the results depend on the processing

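As reported, 5 members were detected in type 1 and 13 in type 2, 4 were at least 4-fold higher in type 2 and 1 in type 1, with a median difference of 0.35. Within neurons whose first number is 9, 9-1 alone stands for type 1, against 9-2 and 9-4 of type 2. There 1 was detected in type 1, and the median over 19 members was 1.81, against 0.09 over all genes. In this setting 8 were 4-fold higher in type 2, and the share over all genes was not computed. Without 6-2, 9-2 and 9-4, the type 2 neurons with most detected members, 3 were detected in type 2 and 1 was 4-fold higher there. In libraries over 20000000 counts, which in type 1 are 8-2 and 9-1 alone, 3 of 19 members were 4-fold higher in type 1. Shares over all genes for such counts were not computed in any alternative setting. A pseudocount of 10 left 0 members 4-fold different in either direction, and 0.1 gave a median of 0.92. Thinning every library to the smallest total gave a median of 0.907. Medians over neurons gave 2 higher in type 2 and 0 in type 1. Keeping the 14 members that average 1 CPM or more gave a median of 1.16, against 0.24 over all genes kept in this way. Members with counts almost only in type 2 pass this filter through that type, which raises the median by construction. Leaving out 1 neuron at a time gave 3 to 5 detected in type 1, the 3 without 8-2, and 11 to 13 in type 2. It gave medians from 0.07 to 0.58, 2 to 5 members higher in type 2 (2 without 9-2 or 9-4) and 0 to 1 in type 1 (0 without 1-2 or 8-2). TMM factors gave 5, 13, 4 and 1. Under TMM factors, both pseudocounts and leaving out each neuron, 108 of 117 differences of 9 members kept their direction. The 9 that did not were of Adcyap1r1 and Npy2r. Mc4r, Npy1r, Sstr2 and Trhr were near 0 throughout type 1, and Nmbr throughout type 2. Their direction could hardly change in these settings, so the count says little about them. No paired analysis was possible because no result comes from a test, and although the first number 9 occurs in both types, the labels do not say what it stands for. Depth limits levels below about 0.306 CPM in the smallest library.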

Other observations

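Grouped by the G protein each receptor is best known to use, a grouping made after the values were seen, 5 of 9 receptors that lower cAMP (55.6%) were detected in some neuron, 3 of 11 that raise it (27.3%) and 3 of 15 that act through phospholipase C (20%). The groups did not hold all 39 receptors of the set, and those left out were not detected in any neuron. The share over all listed genes was 47.1%. No list of genes was tested for enrichment.

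Members whose exons form 1 block, so that their messenger RNA cannot be told from genomic DNA or unspliced RNA by splicing, were detected in 3 of 4 cases (Mc3r, Mc4r and Sstr4, but not Prlhr), against 11 of 38 members with more blocks (28.9%). Over all genes the order was the other way, 11.2% of genes with 1 block and 51.8% of the others. A part of genomic DNA in the counts of Mc3r, Mc4r and Sstr4 was not tested.

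Some receptors outside the list of 42 were also high in a single neuron, chosen here after their values were seen. The melanocortin 1 receptor Mc1r reached 124 CPM in 4-3 and no more than 0.0637 CPM in other neurons, and the neuropeptide Y family receptor Npy4r reached 79.2 CPM in 9-2 and no more than 0.138 CPM in other neurons.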
